A study of Mus musculus with 13 samples.

Results

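The 10 genes described here are general markers of the endothelium, the cell layer that lines every blood vessel: Pecam1, Cdh5, Vwf, Nos3, Kdr, Tie1, Tek, Klf2, Erg and Sox17. They were taken by symbol from the table of gene counts, 10 of its 54532 genes, with no threshold on their values. RNA was measured by sequencing in aortas of 13 ApoE-/- mice, which lack apolipoprotein E and are prone to atherosclerosis. All 13 mice carried a subcutaneous pump releasing angiotensin II (AngII), which raises blood pressure and induces abdominal aortic aneurysm on this background. The 6 Ad-sham mice received the empty adenovirus and the 7 Ad-FAM3A mice the same vector with a FLAG-tagged mouse Fam3a gene, by injection into the tail vein. According to the methods, infusion began at 10 weeks of age and ran for up to 28 days, with 5 virus injections per mouse. The methods give either sex for the mouse model and the labels give none for these aortas. Each library is the mixed tissue of 1 aorta, so fewer endothelial cells and less endothelial RNA per cell cannot be told apart.

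Endothelial cells are joined by adhesion proteins, among them the surface molecule encoded by Pecam1 and VE-cadherin, the product of Cdh5. They store von Willebrand factor (Vwf) for clotting and make nitric oxide, which relaxes the muscle beneath, through endothelial nitric oxide synthase (Nos3). Growth and quiescence are governed by receptor tyrosine kinases. VEGFR2 (Kdr) is the main signalling receptor for VEGF-A, TIE2 (Tek) is the receptor of the angiopoietins, and TIE1 (Tie1) is its partner without a well-established ligand of its own. KLF2 is a transcription factor induced by steady shear flow, ERG is an ETS-family factor that maintains endothelial identity, and SOX17 is a SOX-family factor known for its part in arterial endothelium.

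The bases just upstream of the 3 receptor genes are printed to set Kdr, the gene with the largest difference between the virus groups, beside its fellow receptors. RefSeq promoter windows (GRCm38.p6, the assembly of the count table) were found for 5 of the 10 genes: Tie1, Tek, Kdr, Klf2 and Erg. The strands run 5′ to 3′ in the direction of the gene, and only bases outside the annotated gene are shown. These cover chr4:118490062-118490099 for Tie1 (minus strand, 38 bases), chr4:94739039-94739288 for Tek (plus strand, 250 bases) and chr5:75978459-75978705 for Kdr (minus strand, 247 bases). Capitals mark matches, on either strand, to short motifs of 5 factor families, none of which overlap in the printed bases. For ETS factors, such as ERG itself, the motif searched was AGGAAG, and the variant starting with the other common base in that place, CGGAAG, was counted with it. For SOX factors, such as SOX17, it was ACAATG, and the form used by many other members of that family, ACAAAG, was counted too. For KLF factors, such as KLF2, the letters searched were CCACCC alone. The GATA family was searched for through AGATAA in the same way. The last was the core of the TATA box, with the letters TATAAA only.
Tie1: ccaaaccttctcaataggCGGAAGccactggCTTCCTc
Tek: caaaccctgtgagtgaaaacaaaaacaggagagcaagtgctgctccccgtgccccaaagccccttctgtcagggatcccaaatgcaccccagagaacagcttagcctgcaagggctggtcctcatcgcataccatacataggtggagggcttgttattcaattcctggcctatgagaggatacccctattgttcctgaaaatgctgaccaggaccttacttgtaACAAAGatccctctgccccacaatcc
Kdr: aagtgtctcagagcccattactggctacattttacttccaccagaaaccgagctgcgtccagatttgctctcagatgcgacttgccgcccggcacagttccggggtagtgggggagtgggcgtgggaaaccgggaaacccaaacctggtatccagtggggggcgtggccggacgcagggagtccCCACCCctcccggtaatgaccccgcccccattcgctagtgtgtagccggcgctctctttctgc
In the 38 bases of Tie1 there were 2 ETS matches, 1 on each strand. The Tek window had 1 SOX match starting at position -26 from the transcription start, and the Kdr window 1 KLF match at position -66. None of the 3 held a GATA or TATA match in the printed bases. In the whole window of 250 bases, which for Tie1 and Kdr reaches into the annotated gene, Tie1 had 2 ETS matches and 1 KLF match, Tek 1 SOX match and Kdr 1 KLF match. Among all 32851 RefSeq windows of 250 bases, an ETS match was present in 39.2%, SOX in 25.2%, KLF in 28.1%, GATA in 9.99% and TATA in 12.4%. A match is a description of letters, and the data hold no measure of binding at these sites.

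All 10 genes were well covered. The lowest count of any of them in any aorta was 205 (Sox17) and the highest was 16520 (Pecam1), out of 14481179 to 19797407 counts on genes per aorta. A level per length, CPM (counts scaled to library size and composition by TMM) divided by the kilobases of annotated exon, allowed the genes to be set in order over the 13 aortas. Pecam1 was highest at 89.5 ± 36.8 CPM per kb (SD, n = 13), followed by Klf2 at 70.5 ± 27.4 and Cdh5 at 54.6 ± 11.9. Neighbours in this upper part did not differ beyond their spread: Pecam1 exceeded Klf2 in 10 of 13 aortas, by 0.35 ± 0.55 on the log2 scale, and Klf2 exceeded Cdh5 in 9 of 13.

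A clear step followed. Cdh5 lay above Vwf, at 26.4 ± 11.7 CPM per kb, in all 13 aortas, by 1.15 ± 0.56 on the log2 scale. Vwf and Tie1 (24.2 ± 5.54 CPM per kb) did not differ beyond their spread, with Vwf higher in 5 of 13 aortas, and Tie1 exceeded Tek (18.98 ± 5.59) by 0.37 ± 0.31 in log2, in 10 of 13. From Tek through Erg (16.8 ± 4.88) and Kdr (13.5 ± 4.32) to Nos3 (11.96 ± 4.65 CPM per kb) no neighbouring pair differed beyond its spread. Sox17 was lowest at 5.54 ± 2.06 CPM per kb and lay below Nos3 in all 13 aortas, by 1.10 ± 0.30 in log2. This order is a description of levels, with no test. In the annotation, 32.3% of the exon bases of Nos3 also lie in exons of Atg9b or Gm15587 on the opposite strand, and 16.8% of those of Sox17 in exons of Gm37587. Whether reads were counted by strand is not given in the sources used here, so counts of these 2 genes may include reads of their neighbours. No exon of the other 8 genes overlapped an exon of another gene.

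**Figure D1:**
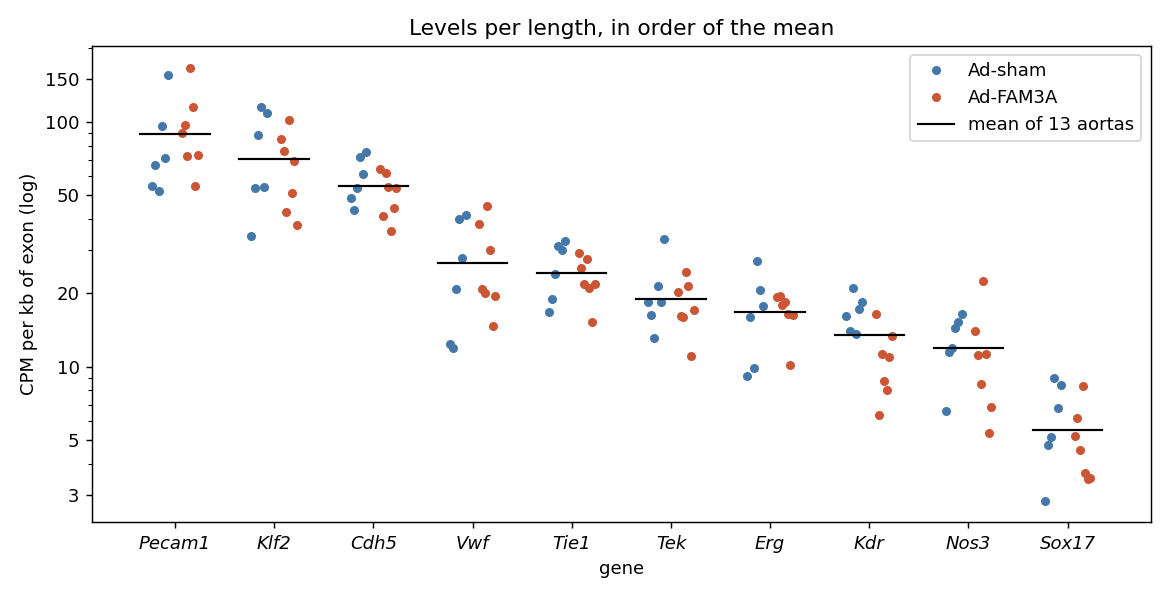
Expression of the 10 genes per length in each aorta, as CPM per kb of exon on a log axis, with Ad-sham aortas in blue, Ad-FAM3A aortas in orange and the mean of all 13 as a black line. The genes fall from Pecam1 at 89.5 to Sox17 at 5.54 CPM per kb, with a step between Cdh5 and Vwf and another between Nos3 and Sox17.

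The comparison of the virus groups ran over the 15811 genes that passed the filter on low counts, all 10 endothelial genes among them, with the quasi-likelihood test of edgeR. No gene of the table, these 10 included, was called different (a log2 fold change over 1 in either direction with an adjusted p under 0.05, background 0%). The smallest adjusted p of all genes was 0.810, 934 genes (5.91%) had an unadjusted p under 0.05 in either direction, and DESeq2, run as an alternative, called 10 genes. Of the 10 endothelial genes, 7 had a negative fold change and 3 a positive one, where 49.6% of all tested genes were negative. Their median log2 fold change was -0.16, beside 0.00 over all genes tested. Only Kdr had an unadjusted p under 0.05, being lower in Ad-FAM3A, as were 2.93% of all tested genes by that criterion. The transferred gene, Fam3a, was at 24.4 ± 4.27 CPM in Ad-sham (SD, n = 6) and 24.0 ± 4.64 in Ad-FAM3A (n = 7), a log2 fold change of -0.03, so the directions given here rest on the labels.

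Kdr (ENSMUSG00000062960, chromosome 5 of GRCm38 from 75932827 to 75978458) stood at 123, 126, 145, 155, 165 and 189.6 CPM in the 6 Ad-sham aortas. In the 7 Ad-FAM3A aortas it stood at 57.2, 72.4, 79.3, 98.6, 101, 121 and 148 CPM. All 7 Ad-FAM3A values were below the Ad-sham median of 150.3 CPM, and 6 of the 7 were below the lowest Ad-sham aorta. The groups overlapped through a single Ad-FAM3A aorta at 148 CPM. Means were 151 ± 25.1 CPM (SD, n = 6) and 96.8 ± 30.7 (n = 7), a ratio of 0.642 and a log2 fold change of -0.64 ± 0.20 (SE). The two-sided exact permutation test of mean log2 CPM over all 1716 splits of the aortas gave p = 0.00874, and the quasi-likelihood test p = 0.00685. Adjusted over all 15811 genes by Benjamini-Hochberg, edgeR's quasi-likelihood p became 0.810, so the difference did not pass the correction. The estimate plus and minus 2 standard errors ran from -1.04 to -0.23. In the authors' FPKM, given as 1 mean per group, Kdr was 16.6 in Ad-sham and 10.7 in Ad-FAM3A.

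The other 2 receptors had estimates of the same sign and smaller size, and the difference between the receptors was not itself tested. Tie1 (ENSMUSG00000033191, chromosome 4, 118471191 to 118490061) ranged from 82.3 through a median of 133 to 160.0 CPM in Ad-sham and from 75.1 through 107 to 143 in Ad-FAM3A, with a log2 fold change of -0.14 ± 0.19. Tek (ENSMUSG00000006386, chromosome 4, 94739289 to 94874976) ranged from 61.5 through 86.5 to 157 CPM in Ad-sham and from 52.0 through 80.5 to 114 in Ad-FAM3A, with a log2 fold change of -0.16 ± 0.22. The groups overlapped over most of their range for both genes, and their unadjusted p were 0.459 and 0.470 by the quasi-likelihood test of edgeR. 

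The junctional genes gave estimates of opposite sign, and the intervals of 2 standard errors included 0 for both. Pecam1 (ENSMUSG00000020717, chromosome 11, 106654217 to 106750628) ranged from 324 through a median of 428 to 966 CPM in Ad-sham. In Ad-FAM3A it ranged from 339 through 562 to 1037 CPM, and 1 of 7 aortas lay below the Ad-sham median. Its log2 fold change was 0.21 ± 0.30, and was 0.034 without Ad-FAM3A4 and 0.49 without Ad-sham6. Cdh5 (ENSMUSG00000031871, chromosome 8, 104101625 to 104144511) was the least variable of the 10 over all aortas, its highest value being 2.11 times its lowest. It ranged from 184 through 241 to 317 CPM in Ad-sham and from 151 through 226 to 269 in Ad-FAM3A, with a log2 fold change of -0.22 ± 0.18.

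Of the effector genes Vwf and Nos3, Vwf varied widely within both groups and Nos3 mainly within Ad-FAM3A. Vwf (ENSMUSG00000001930, chromosome 6, 125546774 to 125686679) ranged from 191 through a median of 390.1 to 668 CPM in Ad-sham and from 235 through 334 to 731 in Ad-FAM3A. Its coefficient of variation was 50.9% and 42.1%, and its log2 fold change was 0.06 ± 0.35. Nos3 (ENSMUSG00000028978, chromosome 5, 24364810 to 24384474) ranged from 27.2 through 54.4 to 67.9 CPM in Ad-sham and from 22.1 through 46.0 to 92.2 in Ad-FAM3A. Nos3 had the widest span over all aortas, 4.16 times from lowest to highest, and a log2 fold change of -0.16 ± 0.30. Its coefficient of variation was 27.9% in Ad-sham and 49.8% in Ad-FAM3A. For both genes the highest of all 13 values was in the same aorta, Ad-FAM3A4.

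Among the transcription factors, Klf2 (ENSMUSG00000055148, chromosome 8, 72319033 to 72321656) ranged from 63.3 through a median of 132 to 212 CPM in Ad-sham and from 70.2 through 127 to 187 in Ad-FAM3A, with a log2 fold change of -0.19 ± 0.30. Erg (ENSMUSG00000040732, chromosome 16, 95359169 to 95586593) had nearly equal means, 58.0 ± 23.2 CPM (SD, n = 6) and 58.3 ± 11.1 (n = 7), and a log2 fold change of 0.01 ± 0.24. The Ad-sham values of Erg spread from 31.7 to 93.3 CPM, while 6 of the 7 Ad-FAM3A values lay between 56.2 and 67.2 and the last at 35.2. Sox17 (ENSMUSG00000025902, chromosome 1, 4490931 to 4497354) ranged from 13.6 through 28.5 to 42.9 CPM in Ad-sham and from 16.6 through 21.9 to 39.8 in Ad-FAM3A, with a log2 fold change of -0.30 ± 0.28. Leaving Kdr aside, the other 9 genes had edgeR quasi-likelihood p from 0.238 to 0.975 and adjusted p from 0.831 to 0.994. Their intervals of 2 standard errors were wide and all included 0, from -0.47 to 0.49 for Erg and from -0.86 to 0.25 for Sox17.

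**Figure D2:**
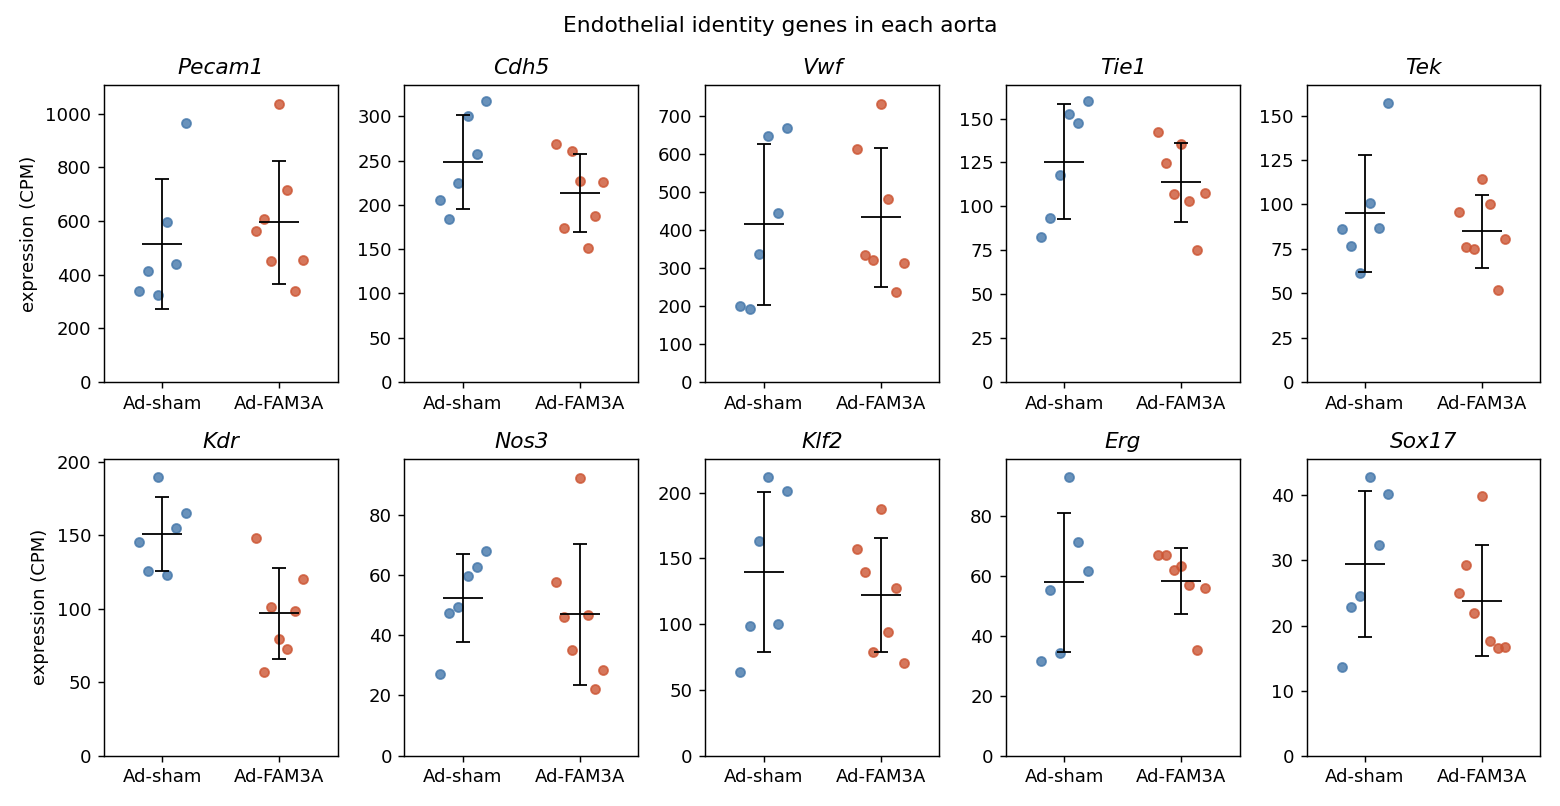
Expression in CPM of the 10 genes in each aorta, 1 panel per gene, with Ad-sham in blue and Ad-FAM3A in orange. Horizontal lines are group means and bars are SD (n = 6 and n = 7), and the groups overlap in every panel, least in that of Kdr.

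The 13 aortas differed in endothelial RNA far more than the groups did, and for most of the genes in the same aortas. Ad-sham4, Ad-sham6 and Ad-FAM3A4 each held the highest value of 3 genes, so that these 3 aortas were highest for all of the genes but Kdr, which peaked in Ad-sham3. The lowest values were in Ad-sham1 for Klf2, Erg and Sox17 and in Ad-FAM3A6 for Nos3, Tie1 and Tek. Summed over the 10 genes, expression ran from 1193 to 2805 CPM in Ad-sham and from 1188 to 2706 in Ad-FAM3A, with medians of 1662 and 1655. Pecam1 and Vwf made up much of the highest sums, at 966 and 668 CPM in Ad-sham6 and 1037 and 731 in Ad-FAM3A4. The sum of 20 other pan-endothelial surface genes ran from 1287 to 2163 CPM in Ad-sham and from 1252 to 1810 in Ad-FAM3A. Both of the lowest sums of the 10 genes belonged to Ad-sham1 and Ad-FAM3A6. These aortas also had the lowest summed CPM of 8 smooth muscle genes in their groups, 2933 and 2251, and the highest of 6 cardiac muscle genes, 283 and 187. All 13 aortas held smooth muscle transcripts, from 2251 to 18191 CPM over these 8 genes, as well as endothelial ones. The part of other tissue in these values was not tested.

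To describe how the genes varied together, each gene's log2 CPM was centred on its group mean, and the 45 pairs were correlated over the 13 aortas. All p-values are from permutation tests with 100000 resamples, adjusted by Benjamini-Hochberg over the 45 pairs. The median Pearson r of all pairs was 0.64, and 39 of 45 were positive. The closest pair was Pecam1 and Tek, with r = 0.92 and rho = 0.87 (permutation p = 3e-05 and 0.00019, adjusted p = 0.00135 and 0.00285), and r was 0.83 without the 2 aortas farthest from the median of Pecam1. Next came Vwf and Tie1, with r = 0.90 and rho = 0.89 (permutation p = 6e-05 and 0.0001, adjusted p = 0.00135 and 0.00285), and r = 0.88 without the 2 aortas farthest from the median of Vwf. Sox17 and Nos3 had r = 0.86 (rho = 0.83, permutation p = 0.00027 and 0.00074, adjusted p = 0.00288 and 0.00476, r = 0.84 without the farthest 2).

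Kdr stood apart from the rest. Its 9 correlations had a median r of -0.08, from -0.30 with Pecam1 to 0.53 with Cdh5, and none had an adjusted permutation p under 0.05. The 36 pairs without Kdr were all positive, with a median r of 0.67, and 25 of them had an adjusted permutation p of r under 0.05. The share of such pairs among all genes was not computed. Kdr and Cdh5 were the one pair of Kdr above 0.1, with r = 0.53 and rho = 0.61 (permutation p = 0.0624 and 0.0309, adjusted p = 0.0936 and 0.0535) and r = 0.46 without the 2 aortas farthest from the median of Cdh5. Within the groups this pair had r = 0.12 in Ad-sham and 0.74 in Ad-FAM3A.

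Each gene's median r with its 9 fellows was also set beside its median r with all 14983 genes at a mean of at least 1 CPM. The median r with all genes was near 0 for each of the 10, from -0.05 for Tek to 0.05 for Cdh5. Beside it, the median r with the 9 fellows ran from 0.48 (Cdh5) to 0.76 (Vwf and Sox17) for the genes other than Kdr and was -0.08 for Kdr. Of all genes compared, 0.934% (Vwf) to 9.86% (Erg) had an r at or above that median, and 56.3% did so for Kdr. The genes of an aorta share its dissection, library and composition, and these correlations are across aortas of mixed tissue.

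Cdh5 took an intermediate place. Its 8 correlations other than that with Kdr had a median r of 0.46, and 2 of them had an adjusted permutation p under 0.05 (Vwf and Tie1). Within the Ad-sham group the median of these 8 was 0.78 and within Ad-FAM3A it was 0.19, a difference that was not tested. For the 28 pairs with neither Kdr nor Cdh5 the medians were 0.76 in Ad-sham and 0.74 in Ad-FAM3A.

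**Figure D3:**
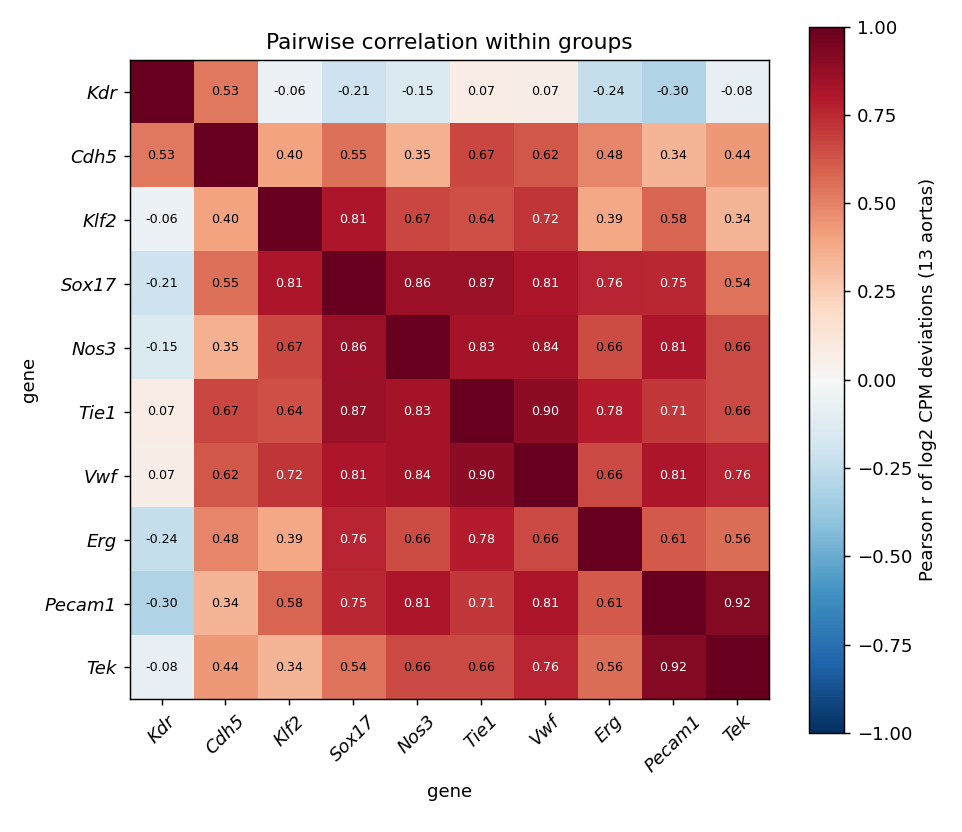
Pearson r between the 10 genes over 13 aortas, computed on log2 CPM after subtracting each group's mean, with red for positive and blue for negative values. The row of Kdr is pale, from -0.30 to 0.53, while the 36 pairs without Kdr are all positive.

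The genes nearest to each member were found among the same 14983 genes by r over the 13 aortas, as a description without p-values. Nearest to Pecam1 were Gja5 (connexin 40, a gap junction protein of arterial endothelium, r = 0.93), Gm43034 (0.92) and Tek (0.92). Vwf and Tie1 both had Eng first, the TGF-beta co-receptor endoglin, at r = 0.92 and 0.97. Vwf was followed by Emc1 (0.90) and Epas1 (0.90), the hypoxia-inducible factor of endothelium, and Tie1 by Exoc3l2 (0.94) and Rin1 (0.91). Tek was nearest to Enpp6 (0.94), Gm43034 (0.93) and Pecam1 (0.92).

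Cdh5 was nearest to Plvap (0.89), the protein of the diaphragms of fenestrated endothelium, then to Tlcd2 (0.89) and Tead4 (0.87). Nos3 had Nab2 (0.96), Adam15 (0.96) and Ccdc102a (0.95), Klf2 had E130309D02Rik (0.86), Gm20735 (0.83) and Hs3st1 (0.82), Erg had Mxra8 (0.95), Wnt16 (0.95) and Synpo (0.93), and Sox17 had Larp6 (0.96), Pkn3 (0.93) and Bik (0.90). Genes near to Kdr included Sox10 (0.87), a transcription factor of Schwann cells and their neural crest precursors, and Cadm4 (0.86).

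Of the 50 genes nearest to each member, those on the endothelial lists used here (0.594% of the genes compared) numbered 9 for Vwf and 8 each for Tie1 and Sox17. Among those of Kdr there were 4, Reln (r = 0.86), Robo4 (0.83), Btnl9 (0.83) and Flt4 (0.81), the last being VEGFR3, the receptor of lymphatic endothelium. None of these 4 was one of the 10 genes, and the 50 nearest of Cdh5, Nos3 and Erg held none of the 10 either. Cdh5 had 3 genes of the lists among its 50 and Nos3 had 2. For Erg 1 was found, the connexin gene Gja4 (0.90).

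Each gene was then expressed relative to the mean log2 CPM of the other 9. Pecam1 had a relative value of 2.19 ± 0.34 in Ad-sham (SD, n = 6) and 2.61 ± 0.34 in Ad-FAM3A (n = 7), a log2 difference of 0.42 (two-sided exact permutation p = 0.0507), and all 7 Ad-FAM3A aortas exceeded the Ad-sham median. Kdr had 0.33 ± 0.54 in Ad-sham and -0.27 ± 0.63 in Ad-FAM3A, a difference of -0.61 with 5 of 7 aortas below the Ad-sham median (exact permutation p = 0.0927). Relative to Pecam1 and Cdh5 alone, the difference of Kdr was -0.69 (exact permutation p = 0.0385). The remaining 8 genes differed by -0.15 to 0.30, with exact permutation p from 0.186 to 0.996. None of the 10 relative differences thus passed 0.05 in the comparison with the other 9. Without Ad-FAM3A6 and Ad-FAM3A7, the 2 aortas rich in B-cell transcripts, that of Pecam1 was 0.50 (exact permutation p = 0.0498) and that of Kdr -0.86 (exact permutation p = 0.0390), a choice made after seeing the data. Within the groups, the SD of the relative value was smallest for Tie1, at 0.15 (0.35 for its log2 CPM), and largest for Kdr, at 0.59, where the SD of its own log2 CPM was 0.38, so the reference of the other 9 added to the spread of Kdr.

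Other endothelial genes were read from 7 lists, none containing the 10. Of 20 pan-endothelial surface genes, 10 had a positive and 10 a negative fold change, with a median of -0.01. One had an unadjusted p under 0.05, Cldn5, the tight junction protein claudin-5, at a log2 fold change of -0.67 ± 0.22 (unadjusted p = 0.0097 and adjusted p = 0.810 by edgeR's quasi-likelihood fit across all genes). It ranged from 43.1 to 143 CPM in Ad-sham and from 43.5 to 77.2 in Ad-FAM3A, so the groups overlapped. Among 10 endothelial transcription factors 4 were positive and 6 negative, with a median of -0.03 and none under 0.05.

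Of the 12 ligands, receptors and partners of the VEGF and angiopoietin pathways, 5 were positive and 7 negative, with a median of -0.13. Nrp1, the VEGF co-receptor neuropilin-1, was the one with an unadjusted p under 0.05, at a log2 fold change of -0.31 ± 0.13 (unadjusted p = 0.0326 and adjusted p = 0.810 by edgeR's quasi-likelihood fit across all genes). Its values ran from 159 to 220.5 CPM in Ad-sham and from 110.4 to 179.5 in Ad-FAM3A. The ligand Vegfa had a log2 fold change of -0.28 ± 0.28, the decoy receptor Flt1 (VEGFR1) -0.28 ± 0.18 and the lymphatic receptor Flt4 -0.10 ± 0.30. The angiopoietins, ligands of TIE2, had -0.15 ± 0.34 (Angpt1) and 0.37 ± 0.31 (Angpt2), and the TIE2 phosphatase Ptprb 0.10 ± 0.26.

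The lists of vessel type lay on both sides of 0. All 7 genes of capillary endothelium had negative fold changes, with a median of -0.50, and 4 had an unadjusted p under 0.05, where 2.93% of all genes had one in this direction. These were Btnl9 (-0.50 ± 0.15), Tcf15 (-0.72 ± 0.29), Car4 (-0.63 ± 0.26) and Meox2 (-0.56 ± 0.26), all with an adjusted p of 0.810 by edgeR's quasi-likelihood fit. Tcf15 and Meox2 are partner transcription factors of endothelium that takes up fatty acids, and Gpihbp1, which anchors lipoprotein lipase on capillaries, had -0.39 ± 0.19 and did not pass that level. The sums of the 7 capillary genes overlapped, from 296 to 423 CPM in Ad-sham and from 204 to 377 in Ad-FAM3A. Of 9 arterial genes 8 were positive, with a median of 0.09 and none under 0.05, and Sema3g was negative at -0.38 ± 0.34. Of 12 genes of flow response and activation 9 were positive, with a median of 0.16 and none under 0.05. Of 8 tested venous and lymphatic genes 3 were positive and 5 negative, with a median of -0.22 and none under 0.05, and Ccl21a did not pass the filter.

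**Figure D4:**
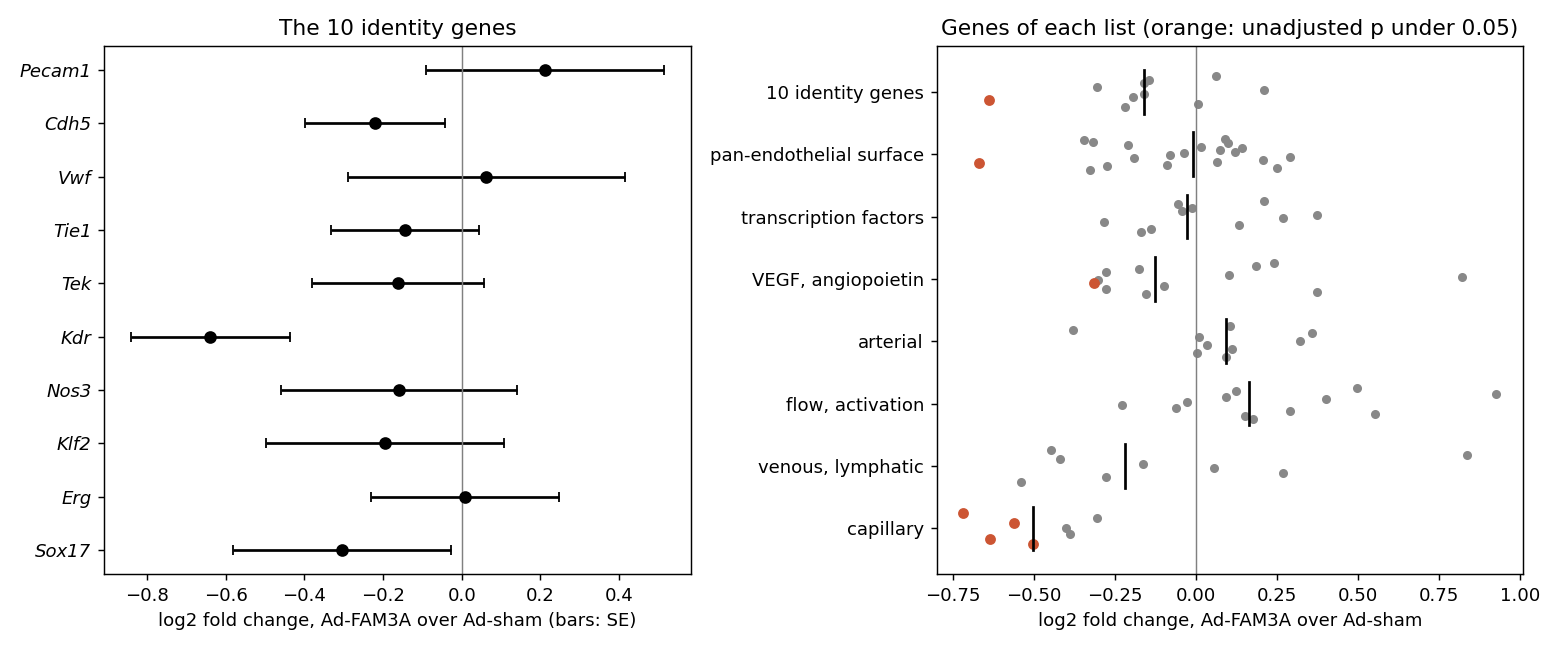
Log2 fold changes of Ad-FAM3A over Ad-sham, with the 10 genes and their SE on the left and, on the right, each of the 10 again above the genes of the 7 other endothelial lists. Orange points have an unadjusted p under 0.05 and black lines are list medians: Kdr at -0.64 lies apart from the other identity genes, and all 7 capillary genes lie below 0, around a median of -0.50.

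Markers of other cells also had fold changes in common directions. All 7 adipocyte genes were negative, with a median of -0.68 and 3 at an unadjusted p under 0.05, beside 2.93% of all tested genes in that direction, and their summed expression ran from 2663 to 9023 CPM in Ad-sham and from 1709 to 5272 in Ad-FAM3A. All 5 brown adipocyte genes were negative, with a median of -0.52 and 2 under 0.05, and all 6 fibroblast genes were negative, with a median of -0.28 and none under 0.05. All 8 smooth muscle genes were positive, with a median of 0.33 and 1 under 0.05, where 5.91% of all genes were so in either direction. Of 5 macrophage genes 1 was positive and 4 were negative, with a median of -0.06 and none under 0.05. All 6 sympathetic neuron genes, with a median of -0.64, all 4 tested cardiac muscle genes (-0.81) and all 3 tested kidney genes (-1.27) were negative, all 6 T-cell genes were positive (1.36), and none of these was under 0.05. The 5 B-cell genes were all positive and all under 0.05, with a median of 2.29, and their sums lay between 23.5 and 131 CPM in 11 aortas but reached 9083 CPM in Ad-FAM3A6, and in Ad-FAM3A7 the sum was 2791 CPM. The log2 fold change of Kdr without these 2 aortas was -0.73. The summed sympathetic neuron genes lay at 26.4 and 26.3 CPM in Ad-sham2 and Ad-sham4, the 2 Ad-sham aortas lowest for Kdr (126 and 123 CPM), and between 595 and 1415 CPM in the other 4. In Ad-FAM3A they lay at 122, 47.4 and 44.3 CPM in Ad-FAM3A2, Ad-FAM3A4 and Ad-FAM3A5, the 3 lowest for Kdr (57.2, 79.3 and 72.4 CPM), and between 329.9 and 1644 CPM in the other 4. These sums fell into separate clusters, so no correlation is given. The part of nerve, fat, muscle and fibroblast content in the values of Kdr and of the capillary genes was not tested.

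The 10 genes were correlated with the summed CPM of the arterial, capillary, smooth muscle, fibroblast and adipocyte lists, 50 relations chosen after the group values were seen and adjusted over the 50. With the arterial list 7 of the 10 genes had an adjusted permutation p under 0.05, Nos3 the closest, with r = 0.90 and rho = 0.88 (permutation p = 3e-05 and 0.00025, adjusted p = 0.0015 and 0.00625, r = 0.80 without the 2 aortas farthest from the median of the list). Tie1 had r = 0.87, Erg 0.86, Pecam1 0.85, Sox17 0.84, Vwf 0.82 and Tek 0.77. The other 3 were Klf2 at 0.47, Cdh5 at 0.43 and Kdr at -0.25 (rho = -0.29, permutation p = 0.419 and 0.335, adjusted p = 0.676 and 0.540). The arterial and smooth muscle sums were both lowest in Ad-FAM3A6, at 156 and 2251 CPM. Both were highest in Ad-FAM3A4, at 496 and 18191 CPM, while within Ad-sham they peaked in different aortas, Ad-sham6 and Ad-sham2. The relation of these sums to each other was not tested. None of the 10 had an adjusted permutation p under 0.05 with the capillary list, where r ran from -0.14 for Vwf to 0.21 for Klf2 and was 0.04 for Kdr. The sum of the list does not stand for each of its genes, since Btnl9, one of the 7, had r = 0.83 with Kdr. With the adipocyte list r ran from -0.40 (Tek) to 0.07 (Kdr), again without an adjusted permutation p under 0.05.

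With the smooth muscle list, 2 genes had an adjusted permutation p under 0.05 for Pearson's r, Nos3 and Erg, and 1 for Spearman's rho, Pecam1. Nos3 had r = 0.84 (rho = 0.70, permutation p = 0.00027 and 0.00907, adjusted p = 0.0028 and 0.0504), which was 0.66 without the 2 aortas farthest from the median of the list. Erg had r = 0.74 (rho = 0.57, permutation p = 0.00435 and 0.0467, adjusted p = 0.0242 and 0.167), which was 0.42 without them, a change that was not tested. Pecam1 had r = 0.65 and rho = 0.73 (permutation p = 0.0145 and 0.00578, adjusted p = 0.0556 and 0.0361), with r = 0.47 without them. Kdr had r = -0.36 with smooth muscle. With the fibroblast list 1 gene passed for r and none for rho, Tek, at r = 0.69 (rho = 0.60, permutation p = 0.00799 and 0.0332, adjusted p = 0.0399 and 0.153), unchanged at 0.69 without the farthest 2.

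**Figure D5:**
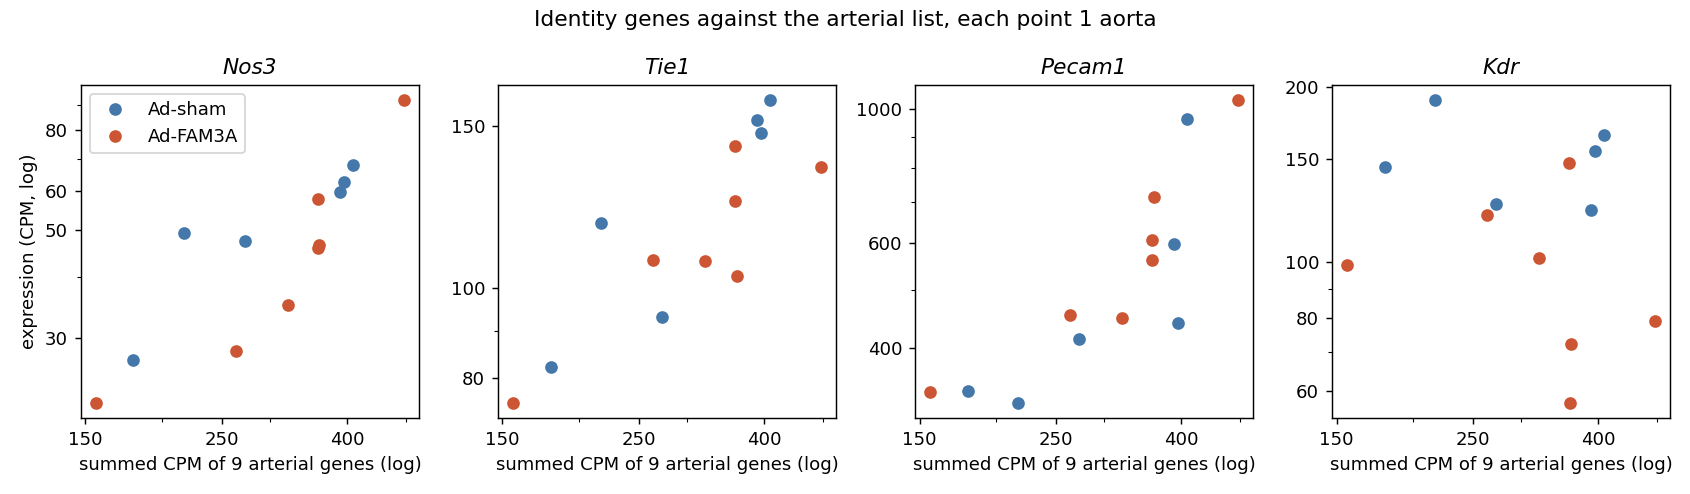
CPM of Nos3, Tie1, Pecam1 and Kdr against the summed CPM of 9 arterial endothelial genes, both on log axes, each point being 1 aorta (Ad-sham blue, Ad-FAM3A orange). The first 3 rise with the arterial sum (r = 0.90, 0.87 and 0.85 within groups), and Kdr does not (r = -0.25).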

How the data were processed

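Aortic RNA of 13 mice was analysed, 1 library per aorta. The authors aligned reads to GRCm38 with Hisat2 and counted them per gene with FeatureCounts. The deposited counts are whole numbers without normalization, and the deposited FPKM values are 1 mean per group made by the authors. The annotation release, the strand setting and the handling of multi-mapped reads are not given in the sources used here. The labels and the methods name different RNA extraction and library kits. Libraries were mapped to groups by their labels. The labels number the aortas without naming the animals, so p-values measure the spread between these samples.

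Total counts were 14481179 to 19797407 per aorta. Counting error was small beside the spread between aortas, and a count of 3 equalled 0.152 to 0.207 CPM. In R 4.3.3, counts were scaled by TMM, filtered by filterByExpr and compared by the quasi-likelihood test of edgeR 4.0.16 with Benjamini-Hochberg adjustment over 15811 genes. SE was derived as the absolute log2 fold change over the square root of F. Log2 CPM used a prior count of 2. Alternatives were other scalings and filters, DESeq2 1.42.0, limma 3.58.1 (voom), a replicate block and leaving out each aorta. The tests were tried on simulated data.

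The genes and lists were chosen with earlier results of these data known. Named besides the 10 genes were list genes with an unadjusted p under 0.05 or that define a list, and the 3 genes nearest to each member, of which 1 is not reported here. Sequences came from RefSeq.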

Additional observations from a re-analysis of the deposited data

Results flagged for a closer look

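For the 10 genes (log2 CPM, and log2 relative to the other 9) and the summed CPM of 18 lists, the aortas of each group were examined for a single value far from its fellows by Dixon's gap test. Of 76 groups of values, 12 held such an aorta, where chance alone gives about 1 in 20, or 3.8, if values are normally distributed. The summed CPM were examined without a log scale, and 10 of the 12 were among their 36 groups of values. For the 10 genes there were 2 among 40 groups of values, the number that 1 in 20 gives: Erg in Ad-FAM3A6, at a log2 CPM of 5.14 against 5.81 to 6.07 in the other 6 Ad-FAM3A aortas, and Sox17 relative to the other 9 in Ad-sham1, at -2.83 against -2.38 to -2.11. Endothelial transcription factors summed to 790.3 CPM in Ad-FAM3A4, against 484 to 602 in the rest of the group.

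The other 9 were sums of other cell types. Ad-FAM3A6 was high for B-cell genes (9083 CPM, the rest 23.5 to 2791), T-cell genes (333 CPM, the rest 8.54 to 62.4) and cardiac muscle genes (187 CPM, the rest 7.13 to 33.6). Ad-sham1 was high for cardiac muscle genes (283 CPM, the rest 7.76 to 76.1) and Ad-sham4 for T-cell genes (122 CPM, the rest 6.97 to 22.3). Brown adipocyte genes were high in Ad-FAM3A2 (2903 CPM, the rest 657 to 1260). Kidney genes were high in Ad-sham6 (646 CPM, the rest 0.121 to 212) and in Ad-FAM3A3 (352 CPM, the rest 0.147 to 33.6), and sympathetic neuron genes in Ad-FAM3A3 (1644 CPM, the rest 44.3 to 406).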

How the results depend on the processing

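The count of called genes was 0 under every alternative except DESeq2, which called 10, none of them among the 10 endothelial genes. The number of endothelial genes with an unadjusted p under 0.05 was 1, Kdr, under every alternative. Its log2 fold change was -0.74 with the replicate number as a block, in which Ad-FAM3A7 had no partner and was left out, and -0.77 to -0.53 leaving out each aorta. Same-numbered aortas correlated from -0.33 to 0.45 in their deviations from the group means. Aortas of different number were not compared, so whether the numbers pair the samples was not tested. The median log2 fold change of the 10 genes was -0.25 (without Ad-sham1) to -0.06 (without Ad-sham6) leaving out each aorta and -0.04 without Ad-FAM3A6 and Ad-FAM3A7. The median pairwise r was 0.55 to 0.67 leaving out each aorta, 0.62 without centring on the groups, 0.64 on library totals and 0.58 without those 2 aortas.

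The number of genes past 0.05 relative to the other 9 was 0, but 1 against Pecam1 and Cdh5 alone (Kdr), 2 without Ad-FAM3A6 and Ad-FAM3A7 (Kdr and Pecam1), and 0 to 1 leaving out each aorta. It was 1 (Pecam1) without Ad-FAM3A1, Ad-FAM3A3, Ad-FAM3A6 or Ad-sham6. Signs of small differences turned. Nos3 had a log2 fold change of 0.085, and 0.073 relative to the other 9, without Ad-FAM3A6 and Ad-FAM3A7. Against Pecam1 and Cdh5, Tek was at -0.15 and Tie1 at -0.14. Sizes moved too: Erg was at 0.07 against this pair, beside 0.24 relative to the other 9. Cdh5, set against Pecam1 alone, was at -0.46, beside -0.09 relative to the other 9. Leaving out each aorta, fold changes ran from -0.11 to 0.19 for Erg, -0.26 to 0.041 for Tek, -0.10 to 0.25 for Vwf, 0.034 (without Ad-FAM3A4) to 0.49 (without Ad-sham6) for Pecam1, -0.40 (without Ad-FAM3A4) to -0.037 (without Ad-FAM3A6) for Nos3, -0.34 (without Ad-sham1) to -0.037 (without Ad-sham4) for Klf2, -0.46 (without Ad-FAM3A4) to -0.17 (without Ad-sham4) for Sox17, -0.29 to -0.14 for Cdh5 and -0.24 to -0.063 for Tie1, and relative differences from -0.12 to 0.10 for Klf2, -0.090 to 0.12 for Tek and -0.020 to 0.056 for Tie1. Relative differences ran from -0.23 to -0.029 for Nos3, -0.17 to -0.013 for Cdh5 and -0.24 to -0.093 for Sox17 in the same way. For Erg they ran from 0.13 to 0.33 and for Vwf from 0.16 to 0.39. The causes were not tested.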
